A study of Homo sapiens with 12 samples.

Results

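The L1, NCAM and contactin adhesion molecules are cell surface proteins with immunoglobulin domains, and 10 of their genes were followed in Daoy cells, an established human medulloblastoma (MB) line of cerebellar origin. They were the L1 family (L1CAM, NFASC, NRCAM and CHL1), the NCAM pair (NCAM1 and NCAM2), the contactins CNTN1 and CNTN2, and the related ALCAM and MCAM. The genes were chosen by family around NFASC, L1CAM and NCAM2, which the study followed up as adhesion targets of its arrays. By qRT-PCR and western blot, which are not part of these data, the study also reported them up in ACM-treated cells. It describes 48 h in ACM, which is taken here to be the comparison after 1 passage, so the values of that comparison are given as a description, with no p of a single gene, and counts of members in it support nothing. The arrays carried 17 probes for the 10 genes, found by matching probe accessions to RefSeq, among 27708 genes measured. Of these, 15 probes of 9 genes passed the filter on dim probes, which left 25275 genes in all. A probe passed where it was well above background on all 3 arrays of at least 1 group, so a gene could pass through the group in which it was high. L1CAM, NFASC, NRCAM, NCAM1, NCAM2, CNTN2, ALCAM and MCAM each had a probe above background on all 12 arrays, and the kept CNTN1 probe was above it on 11.

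RNA was measured on 12 single-colour Agilent arrays, 3 for each of 4 groups. Daoy cells were grown in astrocyte conditioned medium (ACM), the supernatant of hippocampal astrocytes cultured from newborn Sprague Dawley rats in DMEM with fetal bovine serum, or in full DMEM with serum as control. Each medium was used for 1 passage (P1) or 3 passages (P3), with 48 h to a passage. All 4 groups are the same unmodified cell line, no other agent is named for any group, and 3 independent experiments were stated.

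In nerve tissue the L1 family proteins join neighbouring cells and axons, bind ankyrins under the membrane through their cytoplasmic tails, and signal together with FGF and other receptors. Contactins have no cytoplasmic part, are held in the membrane by a lipid anchor, and act through partners such as NFASC, NRCAM and the CNTNAP proteins. NCAM1 is the main carrier of polysialic acid in the brain, and L1CAM is cut from the cell surface by ADAM proteases. L1CAM has long been studied in tumours for its link to migration.

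The promoters of 4 members are shown because L1CAM, NCAM2 and CNTN2 had the same 4 arrays above all others under 2 scalings, while NFASC followed another pattern. Each line holds the 250 bases before the first start site listed for the gene by RefSeq (GRCh38.p14), with matches to the GC box (GGGCGG on either strand) in capitals. The L1CAM window is chrX:153875945-153876194 (minus strand), the NCAM2 window chr21:21146912-21147161 (plus), the CNTN2 window chr1:205042962-205043211 (plus) and the NFASC window chr1:204828402-204828651 (plus).
L1CAM: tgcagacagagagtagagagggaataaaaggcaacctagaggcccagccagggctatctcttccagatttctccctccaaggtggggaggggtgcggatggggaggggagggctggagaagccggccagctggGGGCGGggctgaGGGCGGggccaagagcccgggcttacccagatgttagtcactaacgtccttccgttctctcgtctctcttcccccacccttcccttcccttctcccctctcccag
NCAM2: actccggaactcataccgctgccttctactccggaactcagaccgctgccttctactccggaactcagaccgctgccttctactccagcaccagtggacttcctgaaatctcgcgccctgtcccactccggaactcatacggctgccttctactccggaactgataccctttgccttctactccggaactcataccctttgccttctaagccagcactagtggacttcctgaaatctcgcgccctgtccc
CNTN2: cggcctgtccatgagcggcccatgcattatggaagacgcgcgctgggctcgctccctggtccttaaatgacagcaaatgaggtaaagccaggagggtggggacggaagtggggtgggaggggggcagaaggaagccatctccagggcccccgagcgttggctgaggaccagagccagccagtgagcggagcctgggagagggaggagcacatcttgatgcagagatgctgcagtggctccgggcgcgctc
NFASC: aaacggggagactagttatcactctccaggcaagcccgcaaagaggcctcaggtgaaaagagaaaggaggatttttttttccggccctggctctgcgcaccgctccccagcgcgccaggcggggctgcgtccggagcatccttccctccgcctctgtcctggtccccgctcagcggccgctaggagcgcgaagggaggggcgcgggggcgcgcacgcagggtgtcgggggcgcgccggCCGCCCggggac

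The L1CAM window held 2 GC boxes and the NFASC window 1, and NCAM2 and CNTN2 held 0. Of 27305 such windows of all genes, 42.3% held at least 1. The TATA box (TATAAA on either strand) was in 0 of the 4 windows and in 11.1% of all windows. The E-box (CANNTG, which reads the same on both strands) occurred 2 times in L1CAM, 1 time each in CNTN2 and NFASC and 0 times in NCAM2, against 62.2% of all windows with at least 1. No match overlapped a match to another of these motifs. CG dinucleotides ranged from 8 in L1CAM over 13 in CNTN2 and 14 in NCAM2 to 27 in NFASC, with a median of 11 over all windows. RefSeq lists 2 start sites for L1CAM, CNTN2 and NFASC in this table and 1 for NCAM2. A match is a description of the letters only.

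The 12 arrays lay on 3 slides of 4 arrays, and at neither passage did a slide hold both media. Slide 1 carried all of P1 ACM and the first P3 ACM replicate. The remaining P3 ACM samples shared slide 2 with P1 DMEM replicates 1 and 2, and slide 3 combined the last P1 DMEM replicate with all of P3 DMEM. Between 91.0% and 94.6% of probes were well above background on slide 1, 74.3% to 80.3% on slide 2 and 88.1% to 91.0% on slide 3. At P1 and at P3 slide and medium therefore cannot be told apart except through arrays of the other passage.

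The deposited files also conflict over which sample is which. The authors deposited a table of log2 values beside the scanner output, and each of its 12 columns ranks the probes as the scanner array of another sample does (Spearman correlation across probes at least 0.999986, against 0.953 to 0.992 with the array of its own label). The table columns run through the positions of each slide in the opposite order and through the slides in another order than the scanner files. The table column labelled P1 ACM replicate 1, for example, ranks as the scanner array labelled P1 DMEM replicate 2. The labels of the scanner output are used throughout, and the results that change with the labels of the table are given beside them. Which labels are right was not tested.

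A level is the log2 intensity of a probe after background correction, set against the 75th percentile of its own array, which is 0 on this scale. A level cannot tell fewer cells carrying a transcript from less transcript in each cell. The plot of levels by array shows the 9 kept genes, each through its brightest probe.

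**Figure D1:**
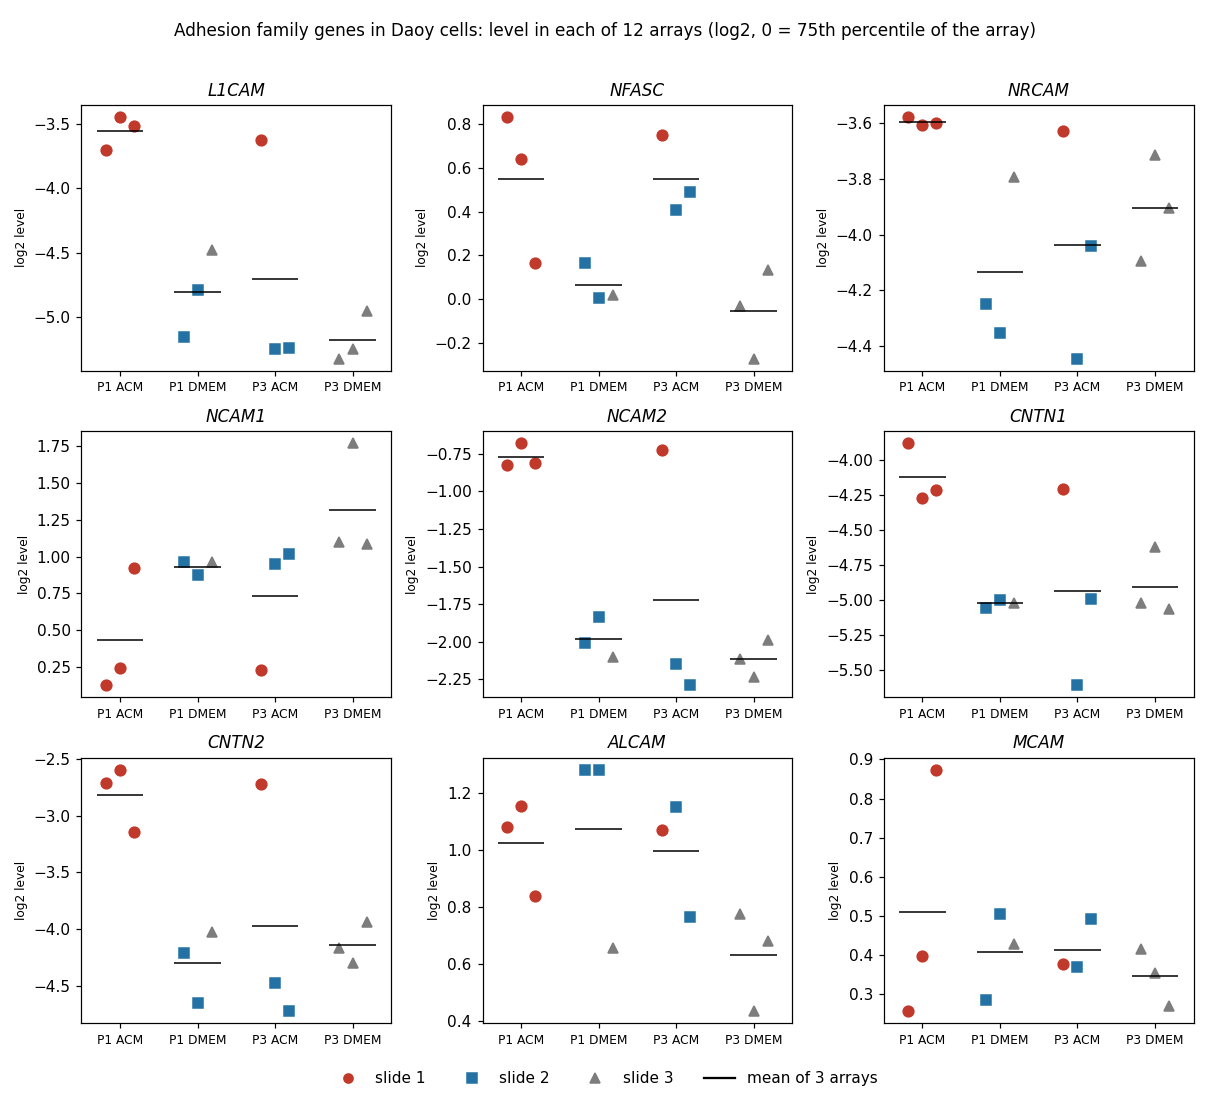
Level of 9 adhesion genes in each of the 12 arrays (vertical axis, log2, with each array's 75th percentile at 0), by medium and passage (horizontal axis), with the slide as colour and shape and the mean of 3 arrays as a line. For L1CAM, NRCAM, NCAM2, CNTN1 and CNTN2 the 4 slide 1 arrays sit above all 8 others, including P3 ACM replicate 1, while NFASC is higher in all 3 P3 ACM arrays than in the 3 P3 DMEM arrays.

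L1CAM, the founding member of the L1 family, was measured at −3.71, −3.45 and −3.52 in the 3 P1 ACM arrays and at −5.15, −4.79 and −4.48 in P1 DMEM. At P3 its ACM levels were −3.62, −5.25 and −5.24, against −5.32, −5.25 and −4.95 in DMEM. All P1 ACM arrays were thus above all P1 DMEM arrays, whereas at P3 the first ACM array stood at the P1 ACM level and the other two lay within the DMEM range. The second L1CAM probe, on another transcript record, overlapped between media at both passages, with P1 levels of −5.02 to −3.99 in ACM and −6.51 to −4.03 in DMEM, and was not well above background on 2 of the 12 arrays.

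NFASC encodes neurofascin, which clusters sodium channels at axon initial segments and nodes in neurons. Its brightest probe gave 0.83, 0.64 and 0.17 in P1 ACM and 0.17, 0.00 and 0.02 in P1 DMEM, where the lowest ACM array met the highest DMEM array. At P3 it gave 0.75, 0.41 and 0.49 in ACM and −0.03, −0.27 and 0.13 in DMEM, without overlap. The second probe gave 0.54, −0.02 and −0.24 in P3 ACM and −0.38, −0.55 and −0.60 in P3 DMEM, and the third gave −2.55, −3.14 and −3.18 against −3.34, −3.72 and −3.50. All 3 NFASC probes therefore separated the media at P3 in the same direction.

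NRCAM, a partner of contactins and ankyrin, was −3.59 ± 0.02 (mean ± SD, n = 3) in P1 ACM, and −4.25, −4.36 and −3.79 in P1 DMEM. In P3 ACM it was −3.63, −4.45 and −4.04 and in P3 DMEM −4.09, −3.71 and −3.91, so that the media overlapped. The second NRCAM probe overlapped at both passages. CHL1, the close homologue of L1, had 1 probe, which was well above background on 1 of 12 arrays, P3 DMEM replicate 1, at −4.61, and was not compared.

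NCAM1, the classical neural cell adhesion molecule, ran the other way. Its brightest probe was 0.13, 0.24 and 0.92 in P1 ACM and 0.96, 0.87 and 0.96 in P1 DMEM, and 0.23, 0.95 and 1.02 in P3 ACM against 1.10, 1.77 and 1.08 in P3 DMEM. At P3 all ACM arrays were below all DMEM arrays on this probe, while at P1 the third ACM array lay inside the DMEM range. The second probe overlapped at P3, with −2.42 to −1.82 in ACM and −1.92 to −1.18 in DMEM, and so did the third, with −4.11 to −2.31 against −3.22 to −2.09.

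NCAM2, an NCAM known from olfactory axons, gave −0.83, −0.68 and −0.81 in P1 ACM and −2.01, −1.83 and −2.10 in P1 DMEM. Its P3 ACM levels were −0.73, −2.15 and −2.29, against −2.11, −2.23 and −1.99 in P3 DMEM. As for L1CAM, P3 ACM replicate 1 lay within the range of the P1 ACM arrays, while of the other P3 ACM arrays one lay within the DMEM range and one below it.

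CNTN2, the contactin of migrating granule cells and young axons also called TAG-1, was −2.71, −2.60 and −3.14 in P1 ACM and −4.21, −4.65 and −4.02 in P1 DMEM. At P3 it was −2.72, −4.48 and −4.72 in ACM and −4.17, −4.30 and −3.93 in DMEM, so 2 ACM arrays lay below and 1 above every DMEM array. CNTN1, the contactin of paranodal junctions, was −3.88, −4.27 and −4.22 in P1 ACM and −5.05, −5.00 and −5.02 in P1 DMEM. Its P3 levels were −4.21, −5.60 and −4.99 in ACM, where the second array was not well above background, and −5.02, −4.63 and −5.06 in DMEM. A second CNTN1 probe was above background on 1 of 12 arrays and was not compared.

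ALCAM, also called CD166, which binds CD6 on T cells and itself on other cells, spanned 0.84 to 1.15 with ACM and 0.66 to 1.28 with DMEM at P1, and 0.76 to 1.15 with ACM and 0.43 to 0.78 with DMEM at P3. MCAM, or CD146, a laminin-binding molecule of vessels and melanoma, was 0.26 to 0.87, 0.29 to 0.51, 0.37 to 0.49 and 0.27 to 0.42 in the same order. For both genes the media overlapped at both passages.

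In the comparison that the study used, ACM against DMEM at P1, 3 of the 9 genes were more than 2-fold higher with a limma p of 0.05 or less, the thresholds of the study: L1CAM (1.25 on the log2 scale, 2.38-fold, and 0.55 on its second probe), NCAM2 (1.21) and CNTN2 (1.47, 2.78-fold). Over all genes 13.5% were called higher and 0.0989% lower by the same thresholds. Arrays of the 2 media did not overlap for 5 of the 9, NRCAM (0.54) and CNTN1 (0.90) being the others, against 30.7% of all genes. NFASC was higher by 0.48, 0.81 and 0.55 on its 3 probes, all below 2-fold, NCAM1 was lower by a difference of −0.50, −0.45 and −0.32, and ALCAM (−0.05) and MCAM (0.10) were near 0. With the kept probes of each gene averaged, L1CAM was at 0.90, below the 2-fold limit. Because the targets are taken to come from this comparison, nothing is read from these counts. The values just inside and just outside the 2-fold limit were 1.21 for NCAM2 and 0.90 for CNTN1. The median difference was 0.54 over the 9 genes and 0.15 over all genes. After quantile normalization, which sets all arrays to the same distribution, they were 0.26 and 0.00, and 2 of the 9 genes passed as higher, against 905 of all 25275. With slide as a fixed block, 0 of the 9 passed, against 0.613% called higher, and the differences became −0.21 for L1CAM, −0.34 for NCAM2, −0.27 for CNTN2, −0.19 for CNTN1 and 0.27 for NCAM1. When the deposited table and its labels were used, 0 of the 9 passed, against 0.266% called higher, with −0.22 for L1CAM, −0.32 for NCAM2, −0.04 for NFASC, −0.61 for CNTN2 and 0.18 for NCAM1.

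**Figure D2:**
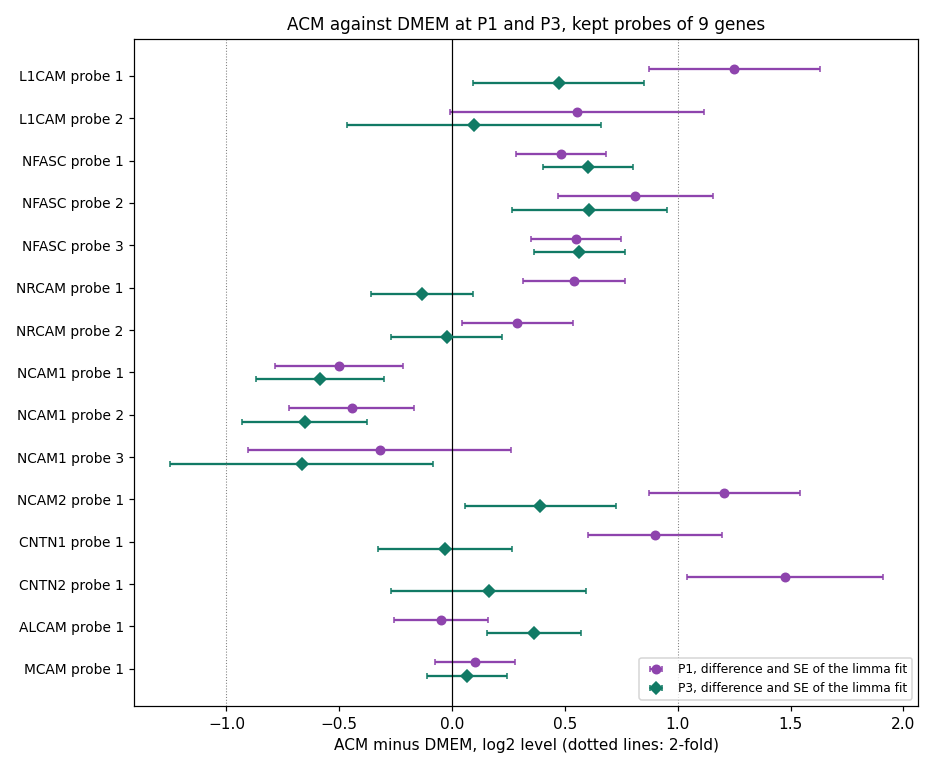
Difference in level between ACM and DMEM (horizontal axis, log2) for the 15 kept probes of 9 genes at P1 and P3, with the standard error (SE) of the limma fit, 3 arrays a group. The 3 NFASC probes lie at 0.48 to 0.81 at P1 and 0.56 to 0.61 at P3, while L1CAM, NCAM2, CNTN1 and CNTN2 lie closer to 0 at P3 than at P1.

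Under the scanner labels the comparison at P3 is not the one taken to have given the targets, so it is tested here. The family was nevertheless chosen with earlier results of these arrays known. In the authors' table, columns labelled P1 rank as the scanner arrays P3 ACM replicates 1 and 3 and P3 DMEM replicate 1. If the targets were chosen under those labels, these P3 arrays helped to choose them, which was not tested. Slide 3 held all of the P3 DMEM arrays and no P3 ACM array, so the P3 values also compare slides. In the fit of all 12 arrays, 0 of the 9 genes passed the thresholds of the study at P3, against 0.91% of all genes called higher and 0.819% called lower. NFASC was 0.60 higher in ACM (SE 0.20, limma, Benjamini-Hochberg adjusted p = 0.659), with 3 of 3 ACM arrays above the DMEM arrays. Its other probes were 0.61 (SE 0.34, adjusted p = 0.712) and 0.56 higher (SE 0.20, adjusted p = 0.659). In the exact permutation test of 3 arrays against 3, two-sided, each NFASC probe gave p = 0.1, the smallest value the design allows. An ACM group wholly above the DMEM group occurred for 4.75% of all genes, and 3.84% were higher with an unadjusted p of 0.05 or less.

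NCAM1 was lower in P3 ACM by a log2 difference of −0.58 (SE 0.28, adjusted p = 0.703), −0.65 (SE 0.28, adjusted p = 0.702) and −0.67 (SE 0.58, adjusted p = 0.783) on its 3 probes. The exact permutation p values were 0.1, 0.2 and 0.4. An ACM group wholly below the DMEM group occurred for 5.03% of all genes. L1CAM (0.47, SE 0.38, adjusted p = 0.775 in limma), NCAM2 (0.39, SE 0.33, adjusted p = 0.780) and ALCAM (0.36, SE 0.21, adjusted p = 0.717) did not pass. The same holds for CNTN2 (0.16, SE 0.43), MCAM (0.07, SE 0.18), CNTN1 (−0.03, SE 0.30) and NRCAM (−0.13, SE 0.23), with adjusted p from 0.886 to 0.982. None of the 31078 probes (0) had an adjusted p of 0.05 or less in limma at P3, while 2186 had such a p before adjustment, and the methods' t-test likewise gave 0, with 1316 before adjustment. The median difference was 0.16 over the 9 genes and 0.00 over all genes.

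A single array set the P3 values of several members. Without P3 ACM replicate 1, the ACM array on slide 1, L1CAM went from 0.47 to −0.07, NCAM2 from 0.39 to −0.11 and CNTN2 from 0.16 to −0.46, whereas NFASC was at 0.50 and NCAM1 at −0.33. With slide as a fixed block the NFASC probes parted, the brightest at 0.44 (SE 0.37), the second at −0.87 (SE 0.37, limma adjusted p = 0.977) and the third at 0.24 (SE 0.30). The NCAM1 probes were then at −0.29 (SE 0.47), −0.36 (SE 0.52) and 0.62 (SE 0.95). Under the labels of the authors' table the P3 differences turned to −0.47 for NFASC, −1.06 for L1CAM, −1.21 for NCAM2, −0.99 for CNTN2 and 0.76 for NCAM1, and 2 of the 9 genes, L1CAM and NCAM2, passed the thresholds as lower in ACM, against 4.14% of all genes.

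**Figure D3:**
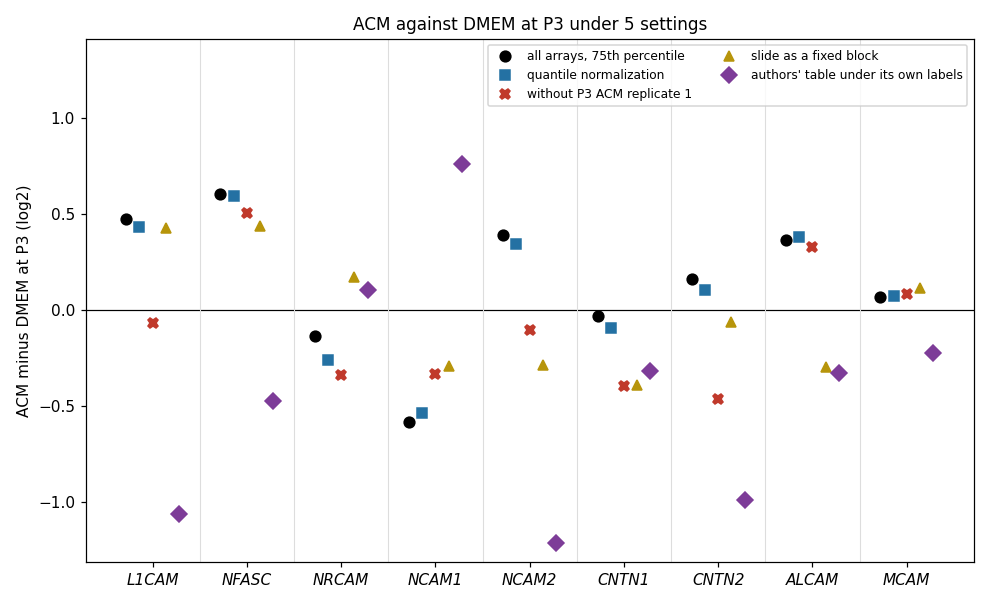
Difference between ACM and DMEM at P3 (vertical axis, log2) for 9 adhesion genes, each by its brightest probe, with all arrays and 4 alternative settings as different markers. The brightest NFASC probe stays between 0.44 and 0.60 except under the labels of the authors' table, where it is −0.47, and L1CAM, NCAM2 and CNTN2 fall below 0 without P3 ACM replicate 1.

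Passage was compared within each medium. In DMEM, 0 of the 9 genes passed the thresholds between P3 and P1, where 1.14% of all genes were called higher and 0.582% lower. The targets differed by −0.37 (L1CAM), −0.12 (NFASC) and −0.13 (NCAM2). Among the relatives the largest differences were −0.44 for ALCAM (SE 0.21, adjusted p = 0.571 in limma) and 0.39 for NCAM1 (SE 0.28, adjusted p = 0.620). In ACM 7.48% of all genes were called lower at P3 and 0.0356% higher. The targets differed by −1.15 (L1CAM), −0.95 (NCAM2) and 0.00 (NFASC), given without a test because the P1 arrays are taken to have chosen them. Of the 6 relatives kept, CNTN2 passed the thresholds as lower. CNTN2 differed by −1.16 (SE 0.43, adjusted p = 0.370) and CNTN1 by −0.81 (SE 0.30, adjusted p = 0.370). The differences in ACM share their P1 arrays with the comparison of media at P1. As a description with the targets included, 2 of the 9 genes, L1CAM and CNTN2, were past the thresholds as lower. Without P3 ACM replicate 2 there were 0, against 1.23% of all genes, without replicate 3 there were 0, against 1.08%, and without replicate 1 there were 4, against 19.2%.

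Set by slide, the 9 genes, each by its brightest probe, fell into 2 patterns. For 5 of the 9, L1CAM, NRCAM, NCAM2, CNTN1 and CNTN2, all 4 arrays of slide 1 were above the 8 others, as were 21.7% of all genes. These 5 are the genes whose media did not overlap at P1. All genes were then divided into 3 classes of equal size by mean signal. The dimmest class held L1CAM, NRCAM, CNTN1 and CNTN2, all 4 of which showed this, against 45.7% of that class. NCAM2, the one member of the middle class, also showed it, against 17.1%. Among the 4 members of the brightest class, NFASC, NCAM1, ALCAM and MCAM, 0 did, against 2.34%. Other probes differed from this, since the third NFASC probe had slide 1 above the other slides, at −2.97 to −2.55 against at most −3.14, and the second probes of L1CAM and NRCAM overlapped. After quantile normalization L1CAM, NCAM2 and CNTN2, 3 of the 9, still had slide 1 above the other slides, against 9.95% of all genes.

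Within slides the members can be compared only across passages or media of different passages. On slide 1, P3 ACM replicate 1 differed from the mean of the P1 ACM arrays by −0.07 for L1CAM, 0.05 for NCAM2, 0.10 for CNTN2 and 0.20 for NFASC. The same array was above the mean of the slide 2 P3 ACM arrays by 1.62 for L1CAM, 1.49 for NCAM2, 1.88 for CNTN2 and 1.09 for CNTN1. For NFASC that gap was 0.30. On slide 2 the P3 ACM arrays were below the P1 DMEM arrays for L1CAM (−0.27) and NCAM2 (−0.30), without overlap, and overlapped for CNTN2 (−0.17) and CNTN1 (−0.27). NFASC was 0.36 higher in the ACM arrays of slide 2, with 0.41 and 0.49 against 0.17 and 0.00, and the third NFASC probe was 0.19 higher without overlap, whereas the second was lower by a difference of −0.25, also without overlap. On slide 3 the P3 DMEM arrays differed from P1 DMEM replicate 3 by −0.70 for L1CAM, −0.01 for NCAM2 and −0.08 for NFASC.

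Genes of the same pathways were read from 4 lists. Of 105 genes kept, 1 passed the thresholds at P3, in the higher direction, beside 0.91% of all genes called higher and 0.819% lower. It was PECAM1, an endothelial and leukocyte adhesion molecule, with −3.07, −5.89 and −4.04 in ACM and −5.89, −6.25 and −5.55 in DMEM (1.56, SE 0.62, adjusted p = 0.690 in limma). The media overlapped, and without P3 ACM replicate 1 no gene (0) of the lists was called higher, beside 0.483% of all genes. Among 28 other immunoglobulin adhesion molecules, 15 were above 0 and 13 below, with a median difference of 0.03, VCAM1 (0.81) next to PECAM1 at the top and CNTN4 (−0.69) and LSAMP (−0.50) at the bottom. Among 31 membrane and matrix partners the median was 0.06, with 17 above 0. CNTNAP5, of the family that binds contactins (0.58), and EGFR (0.52) were highest, and the growth factor receptor FGFR3 (−1.06, SE 0.79) and GLDN, a ligand of NFASC at nodes (−0.78, SE 0.42), were lowest, of which none passed. Among 28 cytoplasmic partners the median was 0.05, with DCX (0.38) among the higher values and AP2M1, which links L1CAM to endocytosis (−0.69, SE 0.18, adjusted p = 0.612), and GAP43 (−0.76) lowest. Among 18 shedding and polysialylation enzymes the median was −0.05, with ADAM8 (0.81) and the polysialyltransferase ST8SIA2 (0.61) highest and ST8SIA4 (−0.50) lowest.

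Likeness was measured as the Pearson correlation of levels over the 12 arrays with 18377 named genes, as a description of arrays that share slides. NFASC was most like MYZAP (0.945), SLC17A9 (0.943) and PDE1B (0.942), and 18 genes had a correlation above 0.9 with it. L1CAM was most like DOC2B (0.990), ASB18 (0.989) and GHRH (0.987), with 1151 genes above 0.9, and NCAM2 like RUNDC3A (0.996), TP53TG3C (0.996) and KDR (0.993), with 1370. In the 6 genes named for L1CAM and NCAM2 the 4 slide 1 arrays were also above the 8 others, and in the 3 named for NFASC they were not. After quantile normalization 145 genes for L1CAM, 615 for NCAM2 and 23 for NFASC were above 0.9. LORICRIN was then the gene most like NFASC (0.9465), and its slide 1 arrays were above the 8 others.

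The labelled cell type was read from marker lists. Of 11 sonic hedgehog MB markers 10 were kept, with ATOH1, the granule precursor factor, above background on 2 of 12 arrays. Markers of other cell types also moved at P1, where 4 of 10 neuron markers, 3 of 10 kept astrocyte markers, 2 of 7 kept microglia markers and 1 of 7 fibroblast and meningeal markers were called higher, and 1 astrocyte marker lower, beside the 13.5% and 0.0989% of all genes. After quantile normalization 1, 3, 1 and 0 were called higher in the same order, beside 905 of all 25275 genes. With slide as a fixed block 0, 0, 0 and 2 were, beside 0.613%. The summed level of each list, log2 of its summed scaled intensities, overlapped between media at P1 for all 4 lists, with 3.17 to 3.21 in ACM and 3.14 to 4.36 in DMEM for neurons, 1.95 to 2.61 and 2.11 to 2.56 for astrocytes, 4.08 to 4.61 and 3.63 to 4.16 for microglia, and 5.97 to 6.29 and 6.06 to 6.15 for fibroblasts. At P3 the summed levels of these 4 lists overlapped between media except for microglia, with 3.86 to 4.46 in ACM and 3.33 to 3.61 in DMEM. GFAP, which defines astrocytes, was above background on at most 7 of 12 arrays, as were S100B and ACSBG1, with GJB6 on 8 and MLC1 on 5. The other astrocyte markers AQP4, SLC1A3, ALDH1L1, GJA1, ALDOC and SLC4A4 each had a probe above it on all 12 arrays, and SLC1A2 on 11. AIF1, of microglia, was matched to no probe. CNTN2 is itself on the list of granule neuron lineage markers. The part of these markers in the P1 and P3 values was not tested.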

How the data were processed

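RNA from Daoy cells in ACM or DMEM at P1 or P3 was hybridised to 12 single-colour Agilent 4 x 44K arrays, and samples were grouped by their titles. The authors deposited the scanner output of Agilent Feature Extraction 11.0.1.1, in which the intensity of each spot is background-corrected and not normalized between arrays. A second file that they deposited holds log2 values for 30569 probes and was used only as an alternative because its labels conflict with the scanner files. Normalization is not given in the sources used here.

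Control spots (1377) and spots with a feature outlier call were left out, which left none (0) of the members' probe values missing, and spots of a probe were averaged. The log2 intensities, scaled to the 75th percentile of each array, were tested with limma 3.58.1 in R 4.3.3 (functions lmFit and eBayes), with 12 arrays and 4 group means in a single fit, two-sided, and Benjamini-Hochberg adjustment over 31078 kept probes. Probes were named through RefSeq accessions (25771 of 34127 matched), without coordinates. The number of arrays limits the precision. P-values measure the spread between the arrays of a group, which in P3 ACM and P1 DMEM also holds differences between slides.

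The named genes were all members with every probe, the genes of 4 partner lists past the thresholds at P3 with the 2 highest and 2 lowest differences in each list, and the 3 genes most like each target. The members and lists were chosen with earlier results of these data known. Deviations of P1 samples with the same replicate number correlated by 0.43, 0.19 and 0.27, and at P3 by 0.23, −0.19 and 0.06. Samples of different numbers were not correlated, so these values cannot show whether the numbers pair the samples. The quoted fit of 4 group means has no term for the replicate number, which entered only as the replicate block. The alternatives were the authors' table, quantile normalization, normexp with an offset of 50 on the median intensity, other filters and probes, other tests, slide or replicate as a block and each array left out, and the scripts were tested on simulated data. Promoters came from RefSeq for 9 of the 10 members, of which 4 are printed.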

Additional observations from a re-analysis of the deposited data

Results flagged for a closer look

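The second CNTN1 probe, which no comparison used because it was too dim, was well above background on 1 array, P1 ACM replicate 3, at a level of −6.72. The highest of the P1 DMEM arrays, none of them above background, was −7.69. P1 ACM replicates 1 and 2 were below that, at −9.03 and −7.76, so the media overlapped. The probe is given here because 1 array showed a signal above the level of the control arrays in a probe outside the comparisons.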

How the results depend on the processing

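At P3 no member had an adjusted p below 0.05 under the fit of all arrays or any alternative, and adjusted p of the brightest probe ranged from 0.279 to 0.999 for NFASC and from 0.174 to 0.999 for NCAM1. At P1 the number of members past the thresholds went from 3 to 1 with normexp, where 0.74% of all genes were called higher. It went to 0 with slide as a fixed block (0.613%), slide as a random block (1.61%) or the authors' table (0.266%). At P3 it went from 0 to 2 under the table, where 4.14% of all genes were called lower. Between passages in ACM it went from 2, with 7.48% of all genes called lower, to 1 with only the arrays compared (2.25%). It was 0 with the methods' t-test (0.495%), normexp (0.142%), quantile normalization (1.43%) or the table (0.282%). Slide as a fixed block (0.202%) or a random block (0.518%) also gave 0. With an array left out it ranged from 0, as without P3 ACM replicate 3 (1.08%), to 4 without P3 ACM replicate 1 (19.2%). The replicate block left these counts as they were, at 3 at P1 (13% of all genes called higher) and 2 in ACM (6.56% lower). It also left them at 0 at P3 (0.977% higher and 0.946% lower) and 0 between passages in DMEM (1.34% and 0.748%). For the probes of NFASC and NCAM1 at P3 this block gave limma adjusted p of 0.436 to 0.538, against 0.659 to 0.783 without it. The partner genes called at P3, counted in both directions, went from 1 to 7 with slide as a fixed block. There 1.54% of all genes were called higher and 1.16% lower. Under the table the count was 2 (1.97% higher and 4.14% lower). With a P3 array left out it ranged from 0 to 4. It was 0 without P3 DMEM replicate 2 (0.772% higher and 0.408% lower). It was 4 without P3 ACM replicate 3 (3.5% and 1.46%) and 2 without P3 ACM replicate 1 (0.483% and 3.62%). Slide 1 stood apart in 3 members after quantile normalization (9.95% of all genes) in place of 5 (21.7%). It did so in 3 after normexp and in 5 to 6 with an array left out. For these last settings the share of all genes is not given, so nothing is read from their counts. The settings for slide and the last 2 for the partner genes were added after seeing the data.

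Signs turned as follows, for differences of the brightest probe unless named. With slide as a fixed block the difference between media at P1 became −0.21 for L1CAM, −0.34 for NCAM2, −0.27 for CNTN2, −0.19 for CNTN1 and 0.27 for NCAM1. At P3 it became −0.30 for ALCAM, −0.059 for CNTN2, −0.28 for NCAM2 and 0.17 for NRCAM. From P1 to P3 it became 0.046 for ALCAM, 0.10 for CNTN2, 0.046 for NCAM2 and −0.20 for NCAM1 in ACM, and −0.11 for CNTN2 and −0.11 for NRCAM in DMEM. With slide as a random block CNTN2 in DMEM became −0.11 and NRCAM at P3 0.047. Under the authors' table P1 became −0.61 for CNTN2, −0.22 for L1CAM, −0.32 for NCAM2, −0.044 for NFASC, −0.080 for NRCAM, 0.18 for NCAM1 and 0.24 for ALCAM. P3 became −0.33 for ALCAM, −0.99 for CNTN2, −1.06 for L1CAM, −0.22 for MCAM, 0.76 for NCAM1, −1.21 for NCAM2, −0.47 for NFASC and 0.11 for NRCAM. Passage became 0.64 for L1CAM, 0.31 for NFASC, 0.83 for NCAM2, 0.22 for ALCAM, 0.13 for MCAM, −0.30 for NCAM1 and −0.023 for NRCAM in DMEM, and 0.22 for CNTN2 and 0.16 for NRCAM in ACM. CNTN1 in DMEM became −0.0074 with normexp, and NCAM1 in ACM −0.12 on its second probe. ALCAM at P1 became 0.010 after quantile normalization, and NFASC in ACM, 0.0014 with all arrays, took either sign, from −0.42 on its second probe upward. With an array left out, P3 values ranged from −0.39 to 0.30 for CNTN1, −0.46 to 0.54 for CNTN2, −0.068 to 0.75 for L1CAM, −0.11 to 0.67 for NCAM2 and −0.34 to 0.070 for NRCAM. In DMEM they ranged from −0.020 to 0.20 for CNTN1 and −0.020 to 0.29 for CNTN2, and in ACM from −0.12 to 0.085 for ALCAM and −0.22 to 0.086 for MCAM. At P1 they ranged from −0.26 to 0.057 for ALCAM and −0.080 to 0.23 for MCAM. The cause of these changes was not tested. Dim probes near background limit CHL1, CNTN1 and the second L1CAM probe.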

Other observations

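At P1, the comparison taken to have given the targets of the study, 4 of 28 other immunoglobulin adhesion molecules, 1 of 31 membrane and matrix partners, 0 of 28 cytoplasmic partners and 1 of 18 shedding and polysialylation enzymes were called higher in ACM, and 0 of each were called lower, beside 13.5% and 0.0989% of all genes. After quantile normalization the counts of higher genes were 2, 0, 0 and 0, beside 905 of all 25275 genes, and with slide as a fixed block 0 in each list, beside 0.613%. The median differences were 0.39, 0.15, −0.08 and 0.03 in the same order. ST8SIA4, one of the polysialyltransferases that modify NCAM1, differed by 1.87 at P1 and −0.50 at P3. The axon guidance receptor ROBO2 differed by 1.81 and −0.25 and the contactin CNTN3 by 1.44 and −0.08. These 3 genes were picked after their values were seen.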
